A study of Mus musculus with 14 samples.

Results

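Adipocytes and lipid droplets were followed through 10 genes in kidney RNA of diabetic and control mice with and without Cfb, the gene of complement factor B. Members were taken by symbol from the gene rows of all 14 mice, and 10 of the 21878 genes listed matched. They were 4 genes known from fat cells (Adipoq, Adig, Plin1 and Fabp4), 4 genes known for lipid storage and uptake in the tubule (Plin2, Plin3, Plin5 and Cd36), and Plin4 and Cidec, which were placed in neither set. The question was whether the fat-cell genes and the storage genes differed between the groups in the same way.

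Total kidney RNA came from male C57BL/6J mice in 4 groups, with 4 diabetic mice and 3 control mice of each genotype, Cfb-/- and WT. Diabetic mice had received a high-fat diet (HFD) with 60% of calories from fat for 4 weeks and streptozotocin (STZ), a toxin of insulin-producing cells, at 60 mg/kg on 5 days in a row. Control mice were given chow with 10% of calories from fat and citrate buffer without STZ. The WT mice were littermates, and Cfb was absent from the whole animal and not from a chosen cell type. A time of 34 weeks was given in the labels for every mouse without a starting point. The starting age and the intervals stated by the study add up to about that age at killing. The labels call the deletion a knockdown and repeat the words for diabetes in the treatment field of control mice, so that groups were taken from the sample titles. Whether cortex or whole kidney was used for sequencing is not stated. Values are FPKM, the fragments of a gene divided by transcript length and by the size of the library. Cfb itself lay between 56.7 and 131 FPKM in WT mice and between 1.13 and 2.22 FPKM in Cfb-/- mice.

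Neutral lipid is kept in droplets whose surface is coated by perilipins. Perilipin 1 (Plin1) guards the large droplet of the adipocyte, perilipin 2 (Plin2) and perilipin 3 (Plin3) coat droplets in most cell types, perilipin 4 (Plin4) coats small new droplets, and perilipin 5 (Plin5) ties droplets to mitochondria in tissues that burn fat. Adiponectin (Adipoq) is a hormone secreted by fat cells, adipogenin (Adig) is a small membrane protein of fat cells, and Cidec lets small droplets fuse into larger ones. Fabp4 binds fatty acids in fat cells, capillary endothelium and macrophages, and Cd36 brings fatty acids into tubule cells, endothelium and macrophages. A kidney is surrounded by fat, and its sinus holds fat beside the urothelium of the renal pelvis, whereas proximal tubule cells burn fatty acids and can store them in droplets of their own.

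The members were not equally abundant. Averaged over 14 mice, Cd36 was highest at 80.2 FPKM, followed by Fabp4 at 37.9, Plin2 at 32.2 and Plin3 at 22.2 FPKM. Plin5 stood at 1.19 FPKM, and the means of the remaining members were 0.567 FPKM for Adipoq, 0.326 FPKM for Plin4, 0.299 FPKM for Cidec, 0.233 FPKM for Adig, and 0.115 FPKM for Plin1. Neighbours in this order overlapped in their ranges over mice, except that the lowest Plin3 value (16.4 FPKM) lay above the highest Plin5 value (3.03 FPKM). All 10 members passed the filter for the test across genes, 0.1 FPKM or more in no fewer than 3 mice. Adipoq and Plin1 passed it through WT diabetic mice and Cfb-/- control mouse 1 alone, so that a difference was built into their passing.

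In the GRCm38.p6 build, the build named in the submitters' processing notes, Adipoq lies at chr16:23146536-23157968 and Adig at chr2:158502612-158508198, both on the plus strand. Plin1 lies at chr7:79721164-79732904 on the minus strand and Fabp4 at chr3:10204342-10208616. Plin4, Plin5 and Plin3 share a stretch of 189.9 kb on the minus strand of chromosome 17, with 1648 bases between Plin4 and Plin5. Cd36 lies at chr5:17781690-17888959 and Cidec at chr6:113424634-113435760, both on the minus strand. The end of Plin4 overlaps Hdgfl2, and Cidec overlaps the noncoding gene Gm52871. How counting used the strand is not given in the sources used here, so that reads of overlapping genes could not be told apart. The Plin2 row carries the gene number that RefSeq gives to Gm12551, a transcribed pseudogene at chr4:86626857-86632221 inside the RefSeq limits of Plin2 (chr4:86626910-86670217, minus strand), and Gm12551 has no row of its own. Which of both loci supplied the Plin2 reads could not be read from the files.

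The bases just before the genes are shown for the 3 lowest fat-cell genes, each of which was highest in WT diabetic mice or Cfb-/- control mouse 1, and for Plin2, which had little spread within groups. RefSeq promoter windows of the GRCm38.p6 build matched 9 of the 10 members, and Fabp4 had none. Each sequence is written 5′ to 3′ on the strand of its gene and covers only bases outside the RefSeq gene and outside any annotated exon, chr16:23146286-23146535 for Adipoq, chr2:158502362-158502611 for Adig, chr7:79732905-79733026 for Plin1, and chr4:86670218-86670309 for Plin2. Capitals mark AGGTCA, the core that many nuclear receptors bind, or CCAAT, a common promoter element, on either strand.
Adipoq: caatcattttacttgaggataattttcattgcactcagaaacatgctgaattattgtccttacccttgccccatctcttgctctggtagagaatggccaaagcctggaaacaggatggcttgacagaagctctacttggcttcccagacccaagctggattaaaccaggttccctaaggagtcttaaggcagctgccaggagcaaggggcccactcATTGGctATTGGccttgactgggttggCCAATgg
Adig: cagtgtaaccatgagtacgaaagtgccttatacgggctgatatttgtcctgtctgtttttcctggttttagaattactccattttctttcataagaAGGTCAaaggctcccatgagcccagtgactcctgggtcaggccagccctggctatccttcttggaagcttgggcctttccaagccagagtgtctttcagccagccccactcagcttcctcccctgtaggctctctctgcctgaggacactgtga
Plin1: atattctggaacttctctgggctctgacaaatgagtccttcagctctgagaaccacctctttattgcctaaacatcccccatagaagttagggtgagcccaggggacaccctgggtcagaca
Plin2: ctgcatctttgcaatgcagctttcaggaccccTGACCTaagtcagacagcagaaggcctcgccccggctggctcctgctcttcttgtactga
Over the 250 bases before each annotated start, AGGTCA was present in 4 of 11 member promoters (Adig, Cd36, Plin2 and Plin5) and in 14% of 32851 promoters. CCAAT was present in 6 of the 11 and in 33.8% of all promoters, with 3 copies before Adipoq. DR1, a repeat of AGGNCA with a single base between the copies that the PPAR receptors bind, was found in 0 of the 11 and in 0.338% of all promoters. These motifs do not overlap one another except that the repeat can contain AGGTCA. A match is a description of the letters and not of a bound site.

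One control mouse and markers of another tissue stood apart and are given before the comparisons. Cfb-/- control mouse 1 had 1.82 FPKM of Adipoq and 0.604 FPKM of Plin1, both of which were listed at 0 in the other 2 mice of its group. The same mouse had the highest level of Ucp1, the heat-producing uncoupler of brown fat, at 3.58 FPKM, against 0 to 0.114 FPKM in the other 13 mice. Its Cidea and Cox8b, further brown fat genes, reached 3.11 and 5.99 FPKM and were also the highest of all mice. Of the other brown fat genes listed, Elovl3 was above 0 in this mouse alone, at 0.0534 FPKM. Cox7a1 (32.1 FPKM), Ppargc1a (5.20 FPKM) and Dio2 (0.0699 FPKM) were not highest in this mouse, and Zic1 was at 0 in all mice. The summed level of 8 urothelium markers was 0.363 to 0.867 FPKM in WT control mice, 0.818 to 51.4 in WT diabetic mice, 0.708 to 10.5 in Cfb-/- control mice, and 1.43 to 3.68 FPKM in Cfb-/- diabetic mice, and no marker was at 0 in all mice of a group. Proximal tubule markers summed to 44598 to 72760 FPKM in control mice and to 8435 to 18905 FPKM in diabetic mice. Most of each sum came from Kap, a proximal tubule gene. Kap held 10.2% to 13.9% of all FPKM in control mice and 1.98% to 4.60% in diabetic mice. Over the 10 markers, the median log2 difference with diabetes was -0.94 in WT and -1.12 in Cfb-/- mice. The FPKM of all genes summed to 330246 to 488196 per mouse. The number of reads is unknown, and relative depth read from the steps between low values lay between 0.838 and 1.

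Adipoq and Plin1 were present in each WT diabetic mouse and at or near 0 in WT control mice, whereas Fabp4 was abundant in both groups. Of the 10 members, 8 rose in WT diabetic mice over WT control mice, and the 2 that did not pass were Plin5 and Cd36. Without Adipoq and Plin1, which entered the test only through their high level in WT diabetic mice, 6 of 8 rose. Over all 14912 genes tested, 46.1% passed the same test at an adjusted p under 0.05, 36.2% with higher and 9.97% with lower levels in diabetic mice. Adjusted p-values are from limma on log2(FPKM + 0.1) with the Benjamini-Hochberg adjustment over all tested genes, and fold changes and log2 differences are on that scale, which understates changes of low genes. The median log2 difference was 1.79 over the 4 fat-cell genes, 1.87 without Plin1, whose WT control mice were all at 0, 1.61 without both Adipoq and Plin1, and 0.34 over the 4 storage genes, beside 0.29 over all genes tested.

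Adipoq was 0.623, 1.02, 3.72 and 0.649 FPKM in WT diabetic mice and 0, 0.0408 and 0 FPKM in WT control mice. Each WT diabetic mouse lay above each WT control mouse, and the third WT diabetic mouse was the highest of the series. The log2 difference was 3.46 (SE 0.83, limma adjusted p = 0.00418). The smallest values above 0 agreed after adjustment for relative depth, and the WT diabetic mice lay 15.4 to 92.3 times above that step.

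Adig was 0.596, 0.239, 0.241 and 0.548 FPKM in WT diabetic mice and 0, 0.126 and 0 FPKM in WT control mice. The groups did not overlap, and the log2 difference was 1.87 (SE 0.53, limma adjusted p = 0.0117). After adjustment for depth these WT diabetic values were only 1.95 to 5.05 times the smallest value above 0, so that Adig may rest on a few fragments per mouse. Plin1 was 0.273, 0.0792, 0.442 and 0.219 FPKM in WT diabetic mice and at 0 in each WT control mouse. Plin1 rose with a limma adjusted p of 0.0201, which became 0.0549 without WT diabetic mouse 3 and 0.0605 without WT control mouse 2. With a pseudocount of 1 in place of 0.1 it was 0.0665.

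Fabp4, the most abundant of the fat-cell genes, was 44.1, 61.2, 66.4 and 68.7 FPKM in WT diabetic mice and 20.9, 32.9 and 18.3 FPKM in WT control mice. It rose 2.54-fold (log2 difference 1.35, SE 0.23, limma adjusted p = 0.000373). Unlike Adipoq, Adig and Plin1, Fabp4 was plainly present in control mice. Markers of endothelium and macrophages, cell types in which Fabp4 is also known, were higher in sum in WT diabetic mice as well. The sum of 10 endothelium markers was 168 to 211 FPKM in WT control mice and 261 to 276 FPKM in WT diabetic mice, with 6 of 10 markers higher. The sum of 10 macrophage markers went from 68.3 to 85.4 FPKM up to 259 to 386 FPKM, with 10 of 10 markers higher. Their part in the result for Fabp4 was not tested. In bulk RNA, more cells of a type and more RNA per cell cannot be told apart.

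Cidec was 0.540, 0.349, 0.931 and 0.359 FPKM in WT diabetic mice and 0.0550, 0.0284 and 0 FPKM in WT control mice, a log2 difference of 2.27 (SE 0.59, limma adjusted p = 0.00666). Plin4 was 0.363, 0.347, 0.634 and 0.572 FPKM in WT diabetic mice and 0.227, 0.154 and 0.147 FPKM in WT control mice, a log2 difference of 1.05 (SE 0.27, limma adjusted p = 0.00622). Neither gene overlapped between the groups. The third WT diabetic mouse was the highest for Adipoq, Plin1, Cidec and Plin4 within its group but not for Adig or Fabp4.

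**Figure D1:**
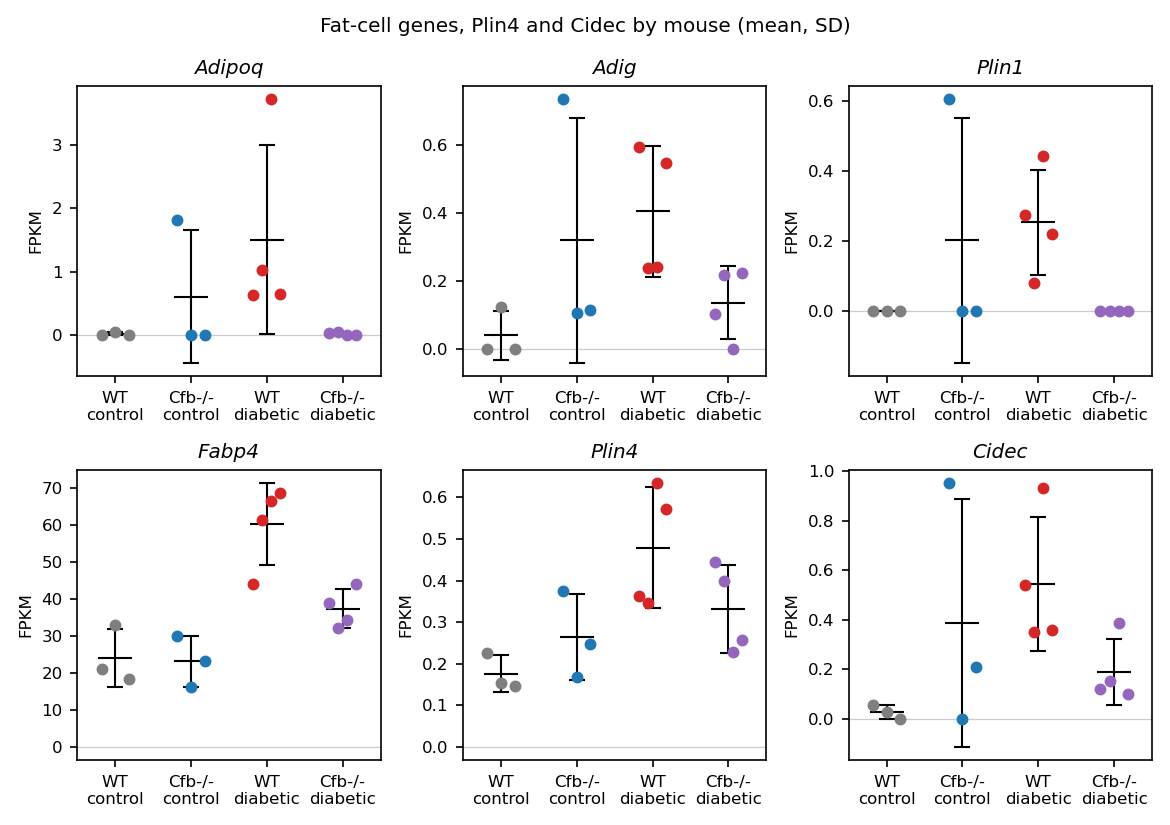
FPKM (y axis, linear) of Adipoq, Adig, Plin1, Fabp4, Plin4 and Cidec in each mouse of the 4 groups, with the mean and SD (n = 3 control and 4 diabetic mice per genotype; bars of the SD may pass below 0 where 1 mouse was far above the others). Adipoq lay between 0.623 and 3.72 FPKM in WT diabetic mice and at 0.0364 FPKM or less in Cfb-/- mice with diabetes, and Cfb-/- control mouse 1 lay at 1.82 FPKM.

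Among the storage genes, Plin2 rose in WT diabetic mice with little spread. It was 42.9, 44.1, 40.4 and 40.6 FPKM in WT diabetic mice and 22.1, 23.3 and 24.3 FPKM in WT control mice. The groups lay far apart against their spread, with a 1.80-fold rise (log2 difference 0.85, SE 0.08, limma adjusted p = 6.39e-06). Plin3 was 24.6, 24.2, 21.3 and 29.2 FPKM in WT diabetic mice and 18.7, 17.3 and 21.0 FPKM in WT control mice. It rose 1.30-fold (log2 difference 0.38, SE 0.13, limma adjusted p = 0.0238), close to the median of 0.29 of all genes. This call was lost without WT diabetic mouse 4 (adjusted p = 0.0678), without WT control mouse 2 (0.0998), and after median-ratio scaling, which left a log2 difference of 0.10 (limma adjusted p = 0.463).

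Plin5 was 1.53, 0.986, 1.14 and 3.03 FPKM in WT diabetic mice and 1.29, 1.51 and 0.918 FPKM in WT control mice. The groups overlapped, and the log2 difference of 0.30 had a 95% interval of -0.42 to 1.02 (limma adjusted p = 0.486). Cd36 was 57.2, 66.0, 80.0 and 55.4 FPKM in WT diabetic mice and 112, 79.6 and 68.8 FPKM in WT control mice. Its log2 difference was -0.41 (SE 0.22, limma adjusted p = 0.140), with overlapping groups. Median-ratio scaling moved Cd36 to -0.69 and past the threshold (limma adjusted p = 0.0316).

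**Figure D2:**
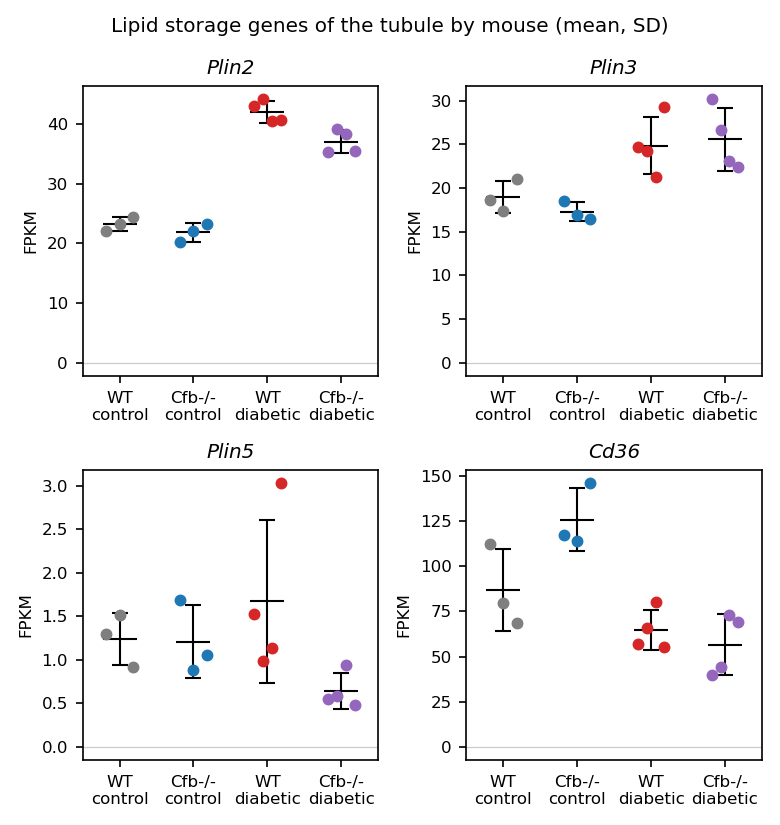
FPKM (y axis, linear) of Plin2, Plin3, Plin5 and Cd36 in each mouse of the 4 groups, with the mean and SD (n = 3 control and 4 diabetic mice per genotype). Plin2 lay between 20.1 and 24.3 FPKM in the 6 control mice and between 35.3 and 44.1 FPKM in the 8 diabetic mice, and Cd36 was highest in Cfb-/- control mice, at 114 to 146 FPKM.

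Without Cfb, diabetes went with a rise of Fabp4, Plin2 and Plin3 and a fall of Cd36, and the other 6 members did not pass the test. Of all genes tested, 33.8% passed in Cfb-/- diabetic mice against Cfb-/- control mice, 27.4% with higher and 6.4% with lower levels in diabetic mice. Plin2 was 35.3, 39.1, 38.3 and 35.4 FPKM in Cfb-/- mice with diabetes, against 20.1, 22.1 and 23.2 FPKM in Cfb-/- control mice, a 1.69-fold rise (log2 difference 0.76, SE 0.08, limma adjusted p = 1.59e-05). Plin3 was 30.2, 26.6, 23.1 and 22.4 FPKM in Cfb-/- mice with diabetes, against 18.5, 16.9 and 16.4 FPKM in Cfb-/- control mice, a 1.47-fold rise (log2 difference 0.55, SE 0.13, limma adjusted p = 0.00366). Both genes lay higher in each diabetic mouse than in each control mouse.

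Cd36 showed the largest change among the storage genes of Cfb-/- mice. It was 39.9, 44.0, 72.9 and 69.3 FPKM in Cfb-/- mice with diabetes, against 117, 114 and 146 FPKM in Cfb-/- control mice. The groups did not overlap, and Cd36 fell by 1.19 on the log2 scale (SE 0.22, limma adjusted p = 0.000909). Proximal tubule markers fell alongside, 9 of 10 in Cfb-/- mice and 7 of 10 in WT mice, and their part in the fall of Cd36 was not tested. Fabp4 was 38.9, 32.1, 34.2 and 43.9 FPKM in Cfb-/- mice with diabetes, against 29.8, 16.1 and 23.3 FPKM in Cfb-/- control mice, a 1.65-fold rise (log2 difference 0.72, SE 0.23, limma adjusted p = 0.0233). This call was lost without Cfb-/- diabetic mouse 1 (adjusted p = 0.0558) or 4 (0.0568), without Cfb-/- control mouse 2 (0.139), and after median-ratio scaling (0.154). Endothelium markers rose here too, 8 of 10, from sums of 132 to 164 FPKM to sums of 222 to 280 FPKM, and so did 9 of 10 macrophage markers, from sums of 57.3 to 89.5 FPKM to sums of 228 to 418 FPKM.

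Adipoq and Plin1 stayed at or near 0 in Cfb-/- diabetic mice. Adipoq was 0.0341, 0.0364, 0 and 0 FPKM, Plin1 was at 0 throughout, and Adig was 0.103, 0.219, 0 and 0.225 FPKM. In Cfb-/- control mice Adipoq was 1.82, 0 and 0 FPKM, Plin1 was 0.604, 0 and 0 FPKM, and Adig was 0.736, 0.108 and 0.117 FPKM. All 3 genes were highest in mouse 1 of that group, which set the sign of their differences. The log2 difference of Adipoq went from -1.20 (limma adjusted p = 0.286) to 0.22 without that mouse, and that of Adig from -0.65 (limma adjusted p = 0.373) to 0.01. Cidec was 0.120, 0.153, 0.386 and 0.102 FPKM in Cfb-/- mice with diabetes, against 0.951, 0 and 0.210 FPKM in Cfb-/- control mice, and its log2 difference went from -0.23 (limma adjusted p = 0.788) to 0.63 without mouse 1.

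Plin5 was 0.550, 0.588, 0.944 and 0.483 FPKM in Cfb-/- mice with diabetes, against 1.68, 0.886 and 1.05 FPKM in Cfb-/- control mice. The third diabetic mouse overlapped the control mice, and the log2 difference was -0.81 (SE 0.34, limma adjusted p = 0.0781). It passed the threshold without Cfb-/- diabetic mouse 3 (adjusted p = 0.0414), without WT diabetic mouse 4 (0.0307), which entered through the shared estimate of spread, with the 2 groups fitted alone (0.0495), and after median-ratio scaling (0.0301) or quantile normalization (0.00760). Plin4 was 0.445, 0.399, 0.229 and 0.257 FPKM in Cfb-/- mice with diabetes, against 0.374, 0.169 and 0.248 FPKM in Cfb-/- control mice, with overlapping groups and a log2 difference of 0.26 (limma adjusted p = 0.488).

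Between both genotypes with diabetes, 6 members lay lower in each Cfb-/- mouse than in each WT mouse, and none passed the adjusted test. The 6 were Adipoq, Adig, Plin1, Fabp4, Plin2 and Plin5. Adipoq and Plin1 entered the test only through their high level in WT diabetic mice, so that their difference was built in. After adjustment for relative depth, Adig overlapped between the groups. Of all tested genes, 0.885% were lower without overlap in this way, and 0.00671%, which was Cfb alone, passed at an adjusted p under 0.05. At an unadjusted p under 0.05, 3% of all genes and the same 6 members passed. The exact two-sided permutation p of each of the 6 was 0.0286, the smallest that 4 mice against 4 allow. Groups without overlap always give this value, so that it adds nothing to the separation by which the 6 were named.

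The log2 difference of Adipoq was -3.41 (SE 0.77, 95% interval -5.05 to -1.77, limma adjusted p = 0.962), and its p was the seventh smallest of all genes. That rank is a description only, since Adipoq passed the filter through its high level in WT diabetic mice. Without Cfb-/- control mouse 1, which is not in this comparison but enters the shared estimate of spread, the difference was the same and the limma adjusted p was 0.00915. With both diabetic groups fitted alone the limma adjusted p was 0.174, and over all alternatives it was 0.00915 to 1. Adig was higher in WT diabetic mice, at 0.239 to 0.596 FPKM, than in Cfb-/- diabetic mice, at 0 to 0.225 FPKM, but the nearest mice of both groups differed by less than the smallest step of that gene (log2 difference -1.16, SE 0.49). After adjustment for relative depth, Cfb-/- diabetic mice 2 and 4 stood at 1.99 and 2.02 times the smallest Adig value above 0. WT diabetic mice 2 and 3 stood at 1.95 and 1.98 times that value, so that the groups overlapped. Plin1 was listed at 0 in each Cfb-/- diabetic mouse, whereas WT diabetic mice had 0.0792 to 0.442 FPKM.

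Plin5 differed by -1.16 on the log2 scale (SE 0.31), with 0.483 to 0.944 FPKM in Cfb-/- mice with diabetes, against 0.986 to 3.03 FPKM in WT diabetic mice. Fabp4 differed by -0.68 (SE 0.21), and its nearest mice were 43.9 and 44.1 FPKM. The median log2 difference was -0.11 over 10 endothelium markers and 0.07 over 10 macrophage markers, none of which passed. Their part in the difference of Fabp4 was not tested. Plin2 differed by -0.18 (SE 0.08), a level 11.9% lower that still separated all mice, since the highest Cfb-/- diabetic mouse had 39.1 FPKM and the lowest WT diabetic mouse 40.4 FPKM. The adjusted limma p of Plin5, Fabp4, Plin2, Adig and Plin1 was 1 in each case. Cidec, Plin4, Cd36 and Plin3 overlapped between both groups. Their 95% intervals of the log2 difference were -2.32 to 0.0049 for Cidec, -0.95 to 0.11 for Plin4, -0.67 to 0.21 for Cd36, and -0.21 to 0.29 for Plin3.

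**Figure D3:**
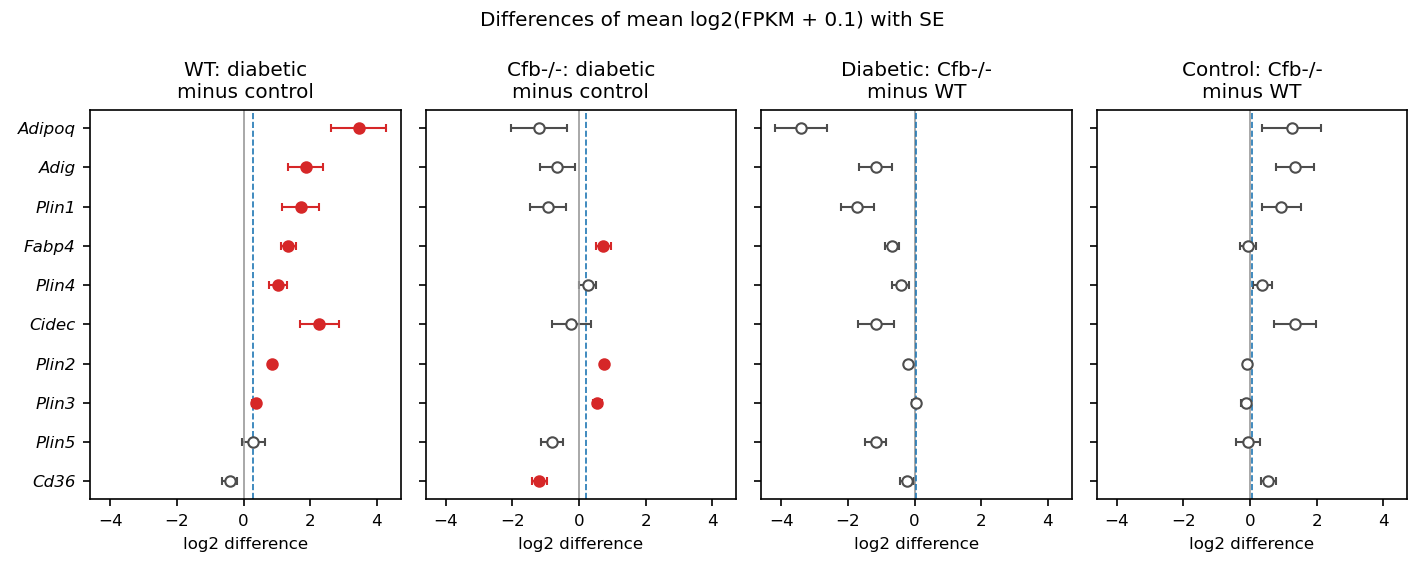
Log2 difference of mean log2(FPKM + 0.1) with its SE (x axis) for each of the 10 members (y axis) in 4 comparisons, with the first group named minus the second; filled red points passed an adjusted p under 0.05, and the dashed blue line is the median of all tested genes. In WT mice 8 members are filled, in Cfb-/- mice 4, and none in the comparisons between genotypes, where Adipoq lies at -3.41 in diabetic mice.

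Among control mice, no member differed between genotypes at an adjusted p under 0.05, and of all tested genes 0.00671%, again Cfb alone, did so. At an unadjusted p under 0.05, Adig and Cd36 passed beside 17.5% of all genes. Cd36 was the only member without overlap, with 114 to 146 FPKM in Cfb-/- control mice and 68.8 to 112 FPKM in WT control mice (log2 difference 0.55, SE 0.24, limma adjusted p = 0.266). Of all tested genes, 6.67% were higher in Cfb-/- control mice without overlap. The exact two-sided permutation p of Cd36 was 0.1, the smallest that 3 mice against 3 allow and the value that groups without overlap always give. Plin2 differed by -0.09 (95% interval -0.28 to 0.09) and Plin3 by -0.13 (95% interval -0.42 to 0.15) on the log2 scale. The differences of Adipoq (1.26), Adig (1.36) and Cidec (1.34) rested on Cfb-/- control mouse 1 to a large part, since without it they were -0.16, 0.70 and 0.49.

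Whether the difference with diabetes was unlike in both genotypes was tested by the interaction of genotype with diabetes. No gene passed at an adjusted p under 0.05 (limma, 0% of 14912), and 5.77% had an unadjusted p under 0.05. The 95% interval lay below 0 for 6 members, with a log2 interaction of -4.66 (SE 1.17) for Adipoq, -2.65 (SE 0.77) for Plin1, -2.51 (SE 0.76) for Adig, -2.50 (SE 0.83) for Cidec, -1.11 (SE 0.48) for Plin5, and -0.78 (SE 0.31) for Cd36. Plin2 (-0.09, 95% interval -0.34 to 0.16) and Plin3 (0.17, 95% interval -0.21 to 0.55) had intervals that include 0. The limma adjusted p of the members was 0.730 to 0.837. Since Adipoq and Plin1 passed the filter only through WT diabetic mice, part of their interaction was built in. Without Cfb-/- control mouse 1 the interaction was -3.24 for Adipoq, -1.71 for Plin1, -1.86 for Adig and -1.64 for Cidec.

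From mouse to mouse within groups, no member followed Adipoq past the adjusted threshold. Deviations from the group means of log2(FPKM + 0.1) gave, over 14 mice and with permutation within groups, the highest Pearson's r with Plin1 (r = 0.89, exact permutation p = 0.0833, Spearman's rho = 0.63, exact permutation p = 0.125) and Cidec (r = 0.77, exact permutation p = 0.0756, rho = 0.42, exact permutation p = 0.272). Plin4 had r = 0.61 (exact permutation p = 0.0567) and rho = 0.61 (exact permutation p = 0.0760), whereas Cd36 and Plin3 had r = 0.01 and -0.01. The adjusted exact permutation p over the 9 members was at least 0.25 for r and at least 0.409 for rho. Without Cfb-/- control mouse 1 and WT diabetic mouse 3, the mice farthest from the median of Adipoq, r was 0.62 for Plin1, 0.43 for Cidec and 0.33 for Plin4, so that the higher values rested on these 2 mice.

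The genes most alike Adipoq by this measure, out of all tested genes outside the members, were Cfd (r = 0.95), Ucp1 (0.89), 1700012L04Rik (0.86), Cidea (0.86) and Slc36a2 (0.86). Spearman's rho was lower, at 0.79 for Cfd, 0.71 for Ucp1, 0.70 for 1700012L04Rik, 0.75 for Cidea and 0.69 for Slc36a2. Ucp1 and 1700012L04Rik were highest in Cfb-/- control mouse 1 and at 0 in WT diabetic mice 1 and 2, which had Adipoq. Ucp1 passed the filter on low values only through WT diabetic mice. These correlations share the same 14 libraries and are given as a description. Cfd, the adipose serine protease complement factor D, was 9.39, 5.56, 25.5 and 7.44 FPKM in WT diabetic mice, 6.01, 0 and 0 FPKM in Cfb-/- control mice, and 0, 0.0755 and 0 FPKM in WT control mice, and each Cfb-/- diabetic mouse was listed at 0. It thus marked the same 5 mice as Adipoq and Plin1. Like Adipoq, Cfd passed the filter on low values only through WT diabetic mice, so that its difference was built in. It passed the test in WT diabetic against WT control mice (limma adjusted p = 0.000306) and stood just outside it between Cfb-/- and WT diabetic mice (limma adjusted p = 0.0523). For Plin2 the most alike genes were Lgals9 (r = 0.88), Gm5431 (0.85), Tekt5 (0.84), Dusp6 (0.83) and Nkain1 (0.82), and none of these is a gene known from fat cells.

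Other markers of fat cells followed in part. Resistin (Retn) was 0.0769 to 0.392 FPKM in WT diabetic mice and 0.135 FPKM in Cfb-/- control mouse 1, and was listed at 0 in the other 9 mice. Leptin (Lep) was listed at 0 in all but 4 mice, which were WT diabetic mice 2, 3 and 4 and Cfb-/- control mouse 1, and did not exceed 0.106 FPKM. Of 12 other adipocyte markers tested, 4 rose (Cfd, Retn, Pparg and Aqp7) and 3 fell (Lpl, Car3 and Gpd1) in WT diabetic mice (median log2 difference 0.32), and in Cfb-/- diabetic mice 1 rose (Aqp7) and 3 fell (Lpl, Car3 and Gpd1), with a median of -0.43. Over all genes tested these medians were 0.29 and 0.22. Of all genes tested, 36.2% rose and 9.97% fell in WT diabetic mice, and 27.4% rose and 6.4% fell in Cfb-/- diabetic mice. Cfd and Retn passed the filter only through WT diabetic mice, and without them 2 of 10 rose and 3 fell in WT diabetic mice (median 0.27). Lpl, the lipase that frees fatty acids from lipoproteins, was 141 to 249 FPKM in control mice and 17.9 to 40.3 FPKM in diabetic mice (log2 difference -2.75 in WT and -2.93 in Cfb-/- mice, limma adjusted p = 1.21e-06 and 8.12e-07). Car3, a carbonic anhydrase abundant in fat, was 16.3 to 31.2 FPKM in control mice and 3.67 to 10.6 FPKM in diabetic mice (log2 difference -1.42 and -2.41, limma adjusted p = 0.000199 and 5.22e-06). Of 5 brown adipocyte markers tested, Cox8b and Ppargc1a rose in WT diabetic mice and none passed in Cfb-/- mice.

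Urothelium markers were also high in some of the mice with Adipoq. All 8 rose in WT diabetic mice against WT control mice, with a median log2 difference of 3.54 (7 of 7 without Krt14, which passed the filter only through WT diabetic mice), and 0 of 8 passed in Cfb-/- mice. The sums were 0.818, 37.2, 51.4 and 18.2 FPKM in WT diabetic mice and 10.2, 0.708 and 10.5 FPKM in Cfb-/- control mice. The markers did not go with Adipoq in each mouse. WT diabetic mouse 1 had 0.623 FPKM of Adipoq with a urothelium sum within the range of WT control mice, and Cfb-/- control mouse 3 had a urothelium sum as high as mouse 1 with Adipoq at 0. The part of urothelium, or of tissue taken along with it, in the fat-cell result was not tested. The sum of 7 skeletal muscle markers was 0.107 to 0.232 FPKM in WT control and 0.921 to 1.51 FPKM in WT diabetic mice, and 0.124 to 0.431 FPKM in Cfb-/- control and 0.901 to 1.63 FPKM in Cfb-/- diabetic mice, higher in each diabetic than in each control mouse. The sum of 6 adrenal gland markers was 0.0741 to 0.188 FPKM in WT control and 0.209 to 0.368 FPKM in WT diabetic mice, and 0.190 to 0.250 FPKM in Cfb-/- control and 0.294 to 0.406 FPKM in Cfb-/- diabetic mice. Their part in the results was not tested. Of 6 markers of other nephron segments, 2 rose in WT mice (Slc12a1 and Aqp2) and 2 in Cfb-/- mice.

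**Figure D4:**
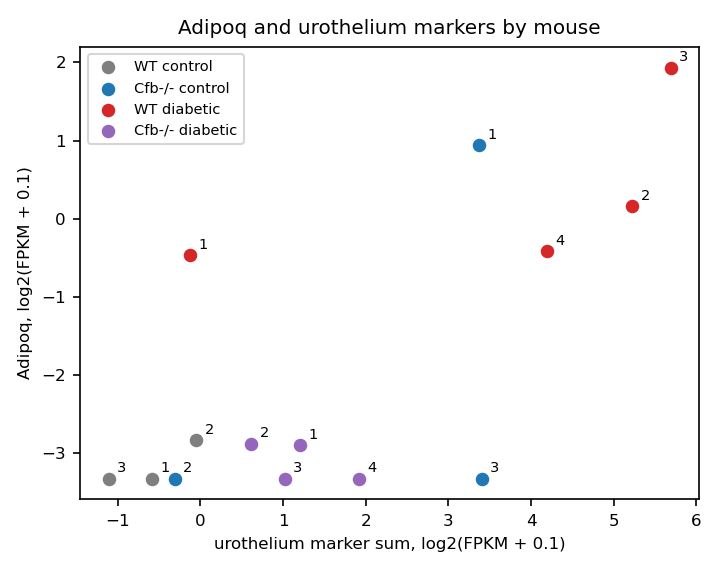
Adipoq (y axis) against the summed FPKM of 8 urothelium markers (x axis), both as log2(FPKM + 0.1), in each of 14 mice; numbers are replicates and colors are groups. WT diabetic mouse 1 has Adipoq at 0.623 FPKM with a urothelium sum of 0.818 FPKM, and Cfb-/- control mouse 3 has Adipoq at 0 with a urothelium sum of 10.5 FPKM.

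The enzymes that make, coat, empty and supply lipid droplets moved in both directions. The shares over all genes tested were 36.2% higher and 9.97% lower in WT diabetic mice. They were 27.4% higher and 6.4% lower in Cfb-/- diabetic mice. Of 16 genes of triglyceride synthesis tested, 4 rose and 1 fell in WT diabetic mice (median log2 difference 0.06), and 2 rose and 2 fell in Cfb-/- diabetic mice, with a median of 0.01. Acsl5, which activates fatty acids, rose 1.95-fold in WT and 1.87-fold in Cfb-/- diabetic mice (limma adjusted p = 3.31e-05 and 5.91e-05). Mogat2, which adds a fatty acid to monoacylglycerol, rose 2.64-fold and 1.67-fold (limma adjusted p = 8.06e-05 and 0.00867). Dgat2, which makes triglyceride from diacylglycerol, fell by 0.64 and 0.48 on the log2 scale (limma adjusted p = 0.00155 and 0.0115). Lpin2 rose in WT diabetic mice (log2 difference 0.99, limma adjusted p = 0.00231), and Mogat1 fell by 0.41 on the log2 scale in Cfb-/- diabetic mice (limma adjusted p = 0.0378).

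Of 11 tested genes of droplet formation, 2 rose and 3 fell in WT diabetic mice (median log2 difference 0.03), and 1 rose and 2 fell in Cfb-/- diabetic mice (median -0.22). Hsd17b11, an enzyme that sits on droplets, fell by 2.03 and 1.78 on the log2 scale in WT and Cfb-/- diabetic mice (limma adjusted p = 1.41e-07 and 6.97e-07), from 193 to 230 FPKM in WT control mice to 46.0 to 57.3 FPKM in WT diabetic mice. Cideb, a relative of Cidec in liver and kidney, fell by 0.93 and 0.68 on the log2 scale (limma adjusted p = 0.000123 and 0.00141). Aup1 fell and Soat1 and Fitm2 rose in WT diabetic mice, and Hilpda, an inhibitor of lipolysis, rose in Cfb-/- diabetic mice (log2 difference 0.88, limma adjusted p = 0.0209). Of 10 genes of lipolysis tested, 2 rose and 3 fell in WT diabetic mice (median -0.12), and 1 rose and 3 fell in Cfb-/- diabetic mice (median -0.35). Mgll, which splits monoacylglycerol, rose 2.70-fold and 1.80-fold (limma adjusted p = 3.03e-06 and 0.000139), while the carboxylesterase Ces1f fell by 1.49 and 1.61 on the log2 scale (limma adjusted p = 1.27e-05 and 8.40e-06). Ces1d and Aadac fell in both genotypes as well.

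Of 13 tested genes of fatty acid uptake and binding, 3 rose and 2 fell in WT diabetic mice (median 0.15), and 5 rose and 3 fell in Cfb-/- diabetic mice (median 0.27). Fabp5, a fatty acid binding protein of epithelium and macrophages, rose 2.82-fold and 1.96-fold in WT and Cfb-/- diabetic mice (limma adjusted p = 1.12e-05 and 0.000274), and the lipoprotein receptor Lrp1 rose 2.63-fold and 2.76-fold (limma adjusted p = 0.000191 and 0.000151). Slc27a2, the fatty acid transporter of proximal tubule, fell by 0.60 and 0.86 on the log2 scale (limma adjusted p = 0.0163 and 0.00225).

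The PPAR receptors and their targets, to which Plin2, Cd36, Fabp4 and Adipoq also belong as known targets, had the most rises in WT diabetic mice among the 7 lists of fat-cell and lipid genes. Of 17 tested, 10 rose and 1 fell in WT diabetic mice (median log2 difference 1.16), and 4 rose and 2 fell in Cfb-/- diabetic mice (median 0.45). Over all genes tested, 36.2% rose in WT diabetic mice and 27.4% in Cfb-/- diabetic mice. This list was also the one with the most genes tested. Pdk4, which holds back glucose oxidation, was 3.76 to 4.21 FPKM in WT control, 19.99 to 27.7 in WT diabetic, 4.35 to 11.4 in Cfb-/- control, and 11.9 to 20.3 FPKM in Cfb-/- diabetic mice, and it rose in both genotypes (log2 difference 2.46 and 1.12, limma adjusted p = 1.13e-05 and 0.00368). Cyp4a14, which oxidizes fatty acids at the omega end, had a log2 difference of 5.48 in WT mice (limma adjusted p = 1.66e-05) and of 1.56 in Cfb-/- mice (limma adjusted p = 0.0583), with 13.4 to 96.3 FPKM in Cfb-/- control mice against 1.76 to 10.5 FPKM in WT control mice. Acot2 rose in both genotypes (log2 difference 0.86 and 0.78, limma adjusted p = 7.26e-05 and 0.000163). Angptl4, an inhibitor of Lpl, rose in both genotypes as well (log2 difference 1.16 and 1.96, limma adjusted p = 0.00328 and 8.90e-05). Acot1 rose in both genotypes (log2 difference 1.29 and 0.996, limma adjusted p = 0.000138 and 0.00110), and Ppard fell in both, by 1.23 and 1.46 on the log2 scale (limma adjusted p = 0.00300 and 0.00113). The interactions of Pdk4 and Cyp4a14 did not pass (limma adjusted p = 0.730 and 0.634), and no gene of these lists passed in either comparison between genotypes.

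**Figure D5:**
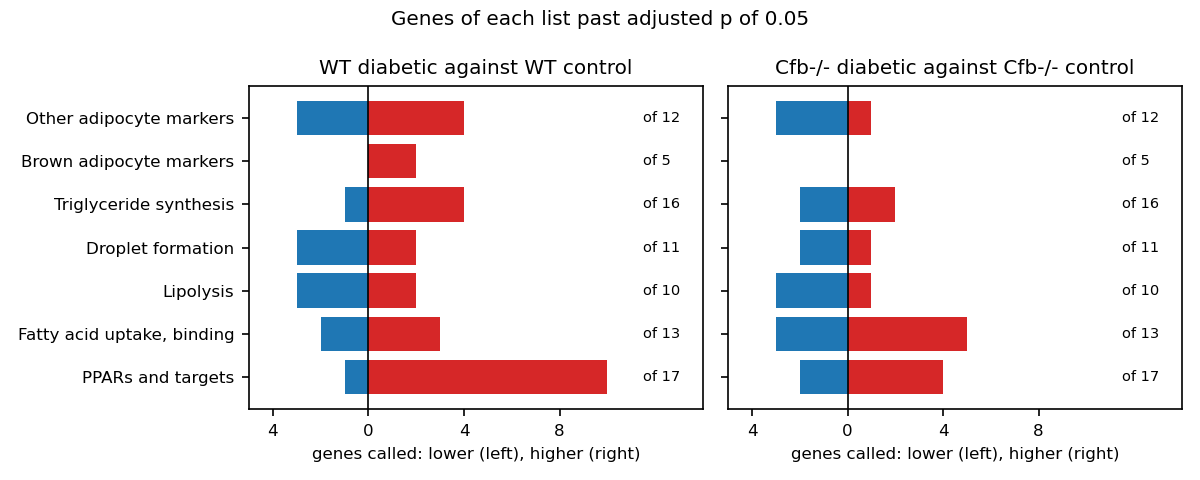
Number of genes called at an adjusted p under 0.05 in each of 7 lists (y axis), with higher levels in diabetic mice to the right in red and lower levels to the left in blue, in WT mice (left panel) and Cfb-/- mice (right panel); the number tested stands at the right of each row. The PPAR list has 10 genes higher in WT diabetic mice and 4 in Cfb-/- diabetic mice, a difference between genotypes that was not tested as a list. Over all genes tested, 36.2% were higher in WT diabetic mice and 27.4% in Cfb-/- diabetic mice.

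The criteria of the study, an unadjusted p below 0.05 with more than a 2-fold change either way, were applied here to the limma fit. The study applied them to DESeq2, so that its gene counts cannot be set beside these. Members called were 6 in WT mice (all but the 4 storage genes, and all higher), beside 17.5% of all genes. In Cfb-/- mice Cd36 alone was called, beside 14.9%. Between diabetic groups these criteria called Adipoq, Adig, Plin1 and Plin5, all lower in Cfb-/- mice, beside 0.476% of all genes, and between control groups Adig, beside 1.17%. For the interaction they called Adipoq, Adig, Plin1, Cidec and Plin5, beside 1.77% of all genes. The counts in WT mice, between diabetic groups and for the interaction include Adipoq and Plin1, which passed the filter only through WT diabetic mice.

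The direction of the comparisons with diabetes depended in part on scaling, since the deposited values carried a median log2 difference above 0. Median-ratio scaling shifted the median of all tested genes by -0.26 in WT mice and -0.23 in Cfb-/- mice, and quantile normalization by -0.33 and -0.27. The share of called genes that were higher in diabetic mice went from 78.4% to 50.3% and 45.2% in WT mice and from 81.0% to 56.8% and 49.9% in Cfb-/- mice. Plin2 remained called in both genotypes under both scalings, Plin3 remained called in Cfb-/- mice, Adipoq, Fabp4 and Cidec remained called in WT mice, and Cd36 remained called in Cfb-/- mice. Adig, Plin1 and Plin4 in WT mice lost their call under quantile normalization (limma adjusted p = 0.0611, 0.0658 and 0.363), and so did Plin3 (0.0577).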

How the data were processed

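Kidney RNA of 14 mice was sequenced as stranded mRNA libraries from paired ends. The authors deposited 1 FPKM value for each gene in each mouse, and the submitters' processing notes name Trimmomatic, HISAT2, Cufflinks, HTSeq and DESeq and the build GRCm38.p6. The study tested read counts, which were not used here, so that limma 3.58.1 (R 4.3.3) with a mean-variance trend was fitted to log2(FPKM + 0.1) of all 14 mice with a mean per group. Genes reaching 0.1 FPKM in 3 or more mice entered the test (14912), without further scaling. FPKM are scaled to the size of a library. Kap, a proximal tubule gene, held 1.98% to 4.60% of summed FPKM in diabetic and 10.2% to 13.9% in control mice. Its part in the levels of the other genes was not tested. Read numbers are unknown. Nothing beyond the labels tells how mice of a group are related, and p-values measure the spread between these mice. Single members were also compared by exact permutation in Python 3.11.15 (scipy 1.17.1, numpy 2.4.6, matplotlib 3.10.9).

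The members and gene lists were chosen with earlier results of these data known. The text names all members, up to 4 called genes per list and comparison with the smallest adjusted p and a mean of at least 1 FPKM, the 5 genes most alike Adipoq and Plin2, Cfb, and genes of counts of 5 or fewer. Pparg, Retn, Lep, Ucp1, Cidea, Angptl4, the remaining brown fat genes and the interactions of 2 PPAR targets were chosen after their values were seen. Alternatives were other pseudocounts and filters, median-ratio and quantile scaling, a fit of only the groups compared, a block for the replicate number, the mean of Adipoq, Adig and Plin1 as covariate, the criteria of the study (unadjusted p below 0.05 with more than a 2-fold change), and leaving out each mouse in turn. The fit was also tried on simulated data with normal spread, with changes placed only in genes whose mean log2(FPKM + 0.1) was above 0. That setting does not cover the members often listed at 0. Trarg1 and Gpat3 of the lists were not found by symbol, and some single genes of the lists are not reported here.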

Additional observations from a re-analysis of the deposited data

How the results depend on the processing

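In WT mice, the count of 8 members called fell to 4 when 1 FPKM was required in 3 or more mice, where 6 members were tested. It fell to 4 after quantile normalization, and to 1 (Plin2), of 7 tested, with the mean of Adipoq, Adig and Plin1 as covariate. Those covariate genes were themselves called between the same groups, so that the covariate carried part of the group difference. A result that moved with it, here or below, therefore cannot tell what the other members followed. By the criteria of the study, members called were 1 (Cd36) in Cfb-/- mice, 4 (Adig, Adipoq, Plin1 and Plin5, all lower) between diabetic groups, 1 (Adig) between control groups, and 5 (Adig, Adipoq, Cidec, Plin1 and Plin5) for the interaction. Leaving out each mouse gave 6 to 8 in WT mice, 3 to 5 in Cfb-/- mice, and 0 to 1 between diabetic groups, the 1 being Adipoq without Cfb-/- control mouse 1.

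Log2 differences that changed sign were not called by the main test. In Cfb-/- mice, Cidec became 0.45 with log2(FPKM + 0.01) and 0.47 with the covariate, and Plin4 -0.44 after quantile normalization. In WT mice, Plin5 became -0.31 after quantile normalization and -0.13 with the covariate. Between diabetic groups, Plin3 became -0.014 after median-ratio scaling, and Cidec 0.43 and Plin4 0.11 with the covariate, under which the interactions of Fabp4 and Plin4 were 0.12 and 0.029. Leaving out each mouse moved Plin5 from -0.30 to 0.12, Fabp4 from -0.26 to 0.19 and Adipoq from -0.16 to 1.97 between control groups, Plin3 from -0.043 to 0.12 between diabetic groups, Plin5 from -0.021 to 0.49 in WT mice, and Adipoq from -1.91 to 0.22, Adig from -0.99 to 0.010 and Cidec from -1.07 to 0.63 in Cfb-/- mice. The cause was not tested.

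Same-numbered mice of different groups did not deviate together (r from -0.388 to 0.243, over 0.1 in 3 of 19 pairs), so that the numbers were not read as a pairing. With the replicate number as a block, Fabp4 in Cfb-/- mice was no longer called (log2 difference 0.65, limma adjusted p = 0.0729), and the counts of members called were 8 in WT mice, 3 in Cfb-/- mice and 0 in the other comparisons.

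The number of reads is unknown, so that no limit of detection can be given for the 5 lowest members.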
